A study of Homo sapiens with 6 samples.

Results

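A set of 10 genes that bring iron into the cell, store it, export it, release it from heme or sense it was followed in RPMI-8402 cells, a leukaemia line of human T cell precursors (T-ALL) that stably carries Cas9. They are TFRC, FTH1, FTL, IREB2, ACO1, SLC11A2, SLC40A1, HMOX1, HMOX2 and NCOA4, chosen by name from the gene symbols of the authors' deposited table, out of 63677 genes in the count table. They matched 11 gene identifiers, because NCOA4 has 2, and the identifier of NCOA4 that had 0 counts in every sample was set aside. The 3 DOX samples had 72 hours of doxycycline, which turned on guides targeting the transcription factor gene MYC. The 3 DMSO samples were the same cells with the solvent DMSO. Both groups carry Cas9, and the genotype tag reads MYC_KO for both. The medium held tetracycline-free serum. The labels name no sample with doxycycline and no guides, so doxycycline itself and the guides cannot be told apart. The sources used here give no doxycycline dose and no guide sequence, and do not say if the Cas9 line is a single clone. The labels do not call the replicates independent cultures, so p-values reflect only how these samples spread, which may be technical.

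Iron enters dividing cells on transferrin, which the transferrin receptor carries into endosomes, and SLC11A2 passes it on to the cytosol. Spare iron is stored inside ferritin shells of FTH1 and FTL chains, and NCOA4 delivers ferritin to lysosomes when iron is needed. When iron is scarce, the iron regulatory proteins ACO1 and IREB2 bind hairpins in messenger RNAs called iron-responsive elements. Bound in a 3′ untranslated region (UTR), as in TFRC, they protect the RNA from decay, whereas bound in a 5′ UTR, as in ferritin, they block translation. Total RNA counts can show changes of RNA level but not of translation.

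The elements are shown because they are the sequences through which these RNAs respond to iron. Protein-coding transcripts of GENCODE 29 were searched, on the sense strand, for the element's core, which is an unpaired C, 5 bases, the loop CAGTGN and 5 more bases, where the 5 bases on each side of the loop form Watson-Crick or G-U pairs. Of 19684 protein-coding genes, 0.168% held a match in a 5′ UTR and 0.666% in a 3′ UTR. FTH1, FTL and SLC40A1 each had 1 match in the 5′ UTR and TFRC had 4 in the 3′ UTR. No match of this form was found in the other 6 genes, which says only that these letters with this pairing are not in their GENCODE 29 UTRs. Each element is written 5′ to 3′ on the sense strand over 29 bases of DNA letters, numbered from the transcript's first base, with the unpaired C and the loop in capitals.
FTH1, chromosome 11, 5′ UTR, bases 59 to 87: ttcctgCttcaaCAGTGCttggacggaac
FTL, chromosome 19, 5′ UTR, bases 35 to 63: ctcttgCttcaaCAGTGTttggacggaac
SLC40A1, chromosome 2, 5′ UTR, bases 199 to 227: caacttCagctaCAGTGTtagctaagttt
TFRC, chromosome 3, 3′ UTR, bases 3388 to 3416: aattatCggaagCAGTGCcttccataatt
TFRC, chromosome 3, 3′ UTR, bases 3792 to 3820: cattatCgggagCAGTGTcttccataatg
TFRC, chromosome 3, 3′ UTR, bases 3857 to 3885: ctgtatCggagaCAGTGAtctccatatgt
TFRC, chromosome 3, 3′ UTR, bases 3904 to 3932: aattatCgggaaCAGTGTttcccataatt

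Gene counts summed to between 23121255 and 26214598 per library. MYC itself, the targeted gene, had 459, 431 and 431 CPM (a gene's reads relative to library size, on the usual per-million scale after TMM scaling) in DOX replicates 1, 2 and 3, against 409, 422 and 407 CPM in DMSO replicates 1, 2 and 3. All DOX samples lay above all DMSO samples, with a log2 fold change of 0.09 that was not called (edgeR adjusted p = 0.160). It passed as higher when scaled by the upper quartile (0.14, edgeR adjusted p = 0.0357) or by library size (0.14, edgeR adjusted p = 0.0281), and was above 0 under every alternative run. Gene counts do not measure whether the guides cut. All 12 T cell markers on the list were tested, with a summed level of 3233 to 3331 CPM in DOX and 3167 to 3375 CPM in DMSO. Markers of erythroid cells, macrophages and hepatocytes each summed to at most 1.15 CPM in every library, with GYPB, HBA2, HBB, HBG1, CD33, MRC1 and APOB at 0 counts throughout. B cell markers summed to 16.2 to 17.1 CPM in DOX and 11.5 to 12.9 CPM in DMSO, with MS4A1 at 0 counts. Over all 15492 genes tested, 29.3% were called, 13.8% as higher and 15.5% as lower in DOX (edgeR quasi-likelihood test, Benjamini-Hochberg adjusted p under 0.05). With upper-quartile scaling the calls were 2871 higher and 1585 lower, against 2137 higher and 2408 lower with TMM.

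Most iron-handling genes were not called, as holds for most tested genes, of which 29.3% were called. Of the 10, HMOX1 was called as higher in DOX, IREB2 as lower, and the other 8 did not pass, beside the 13.8% and 15.5% of all genes called in each direction. At a mean of 10 CPM or more, where all members but HMOX1 stood, 14.0% of all genes were called as higher and 24.2% as lower. HMOX1 entered the test through its DOX libraries alone, as described with its values. Among the other 9 genes the median log2 fold change was -0.08, the median size was 0.08 and the largest size was 0.23. The median size was 0.16 over all tested genes and 0.13 over those with a mean of 10 CPM or more. For the 9 genes the median log2 fold change was -0.04 with upper-quartile scaling. It was -0.02 over the 8 with a value when GC content and length were corrected, where TFRC and FTH1 stood above 0. Groups did not overlap for 3 of the 10 genes, ACO1, SLC40A1 and HMOX1, against 41.7% of all tested genes. In bulk RNA, fewer cells that express a gene and less of its RNA per cell cannot be told apart.

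**Figure D1:**
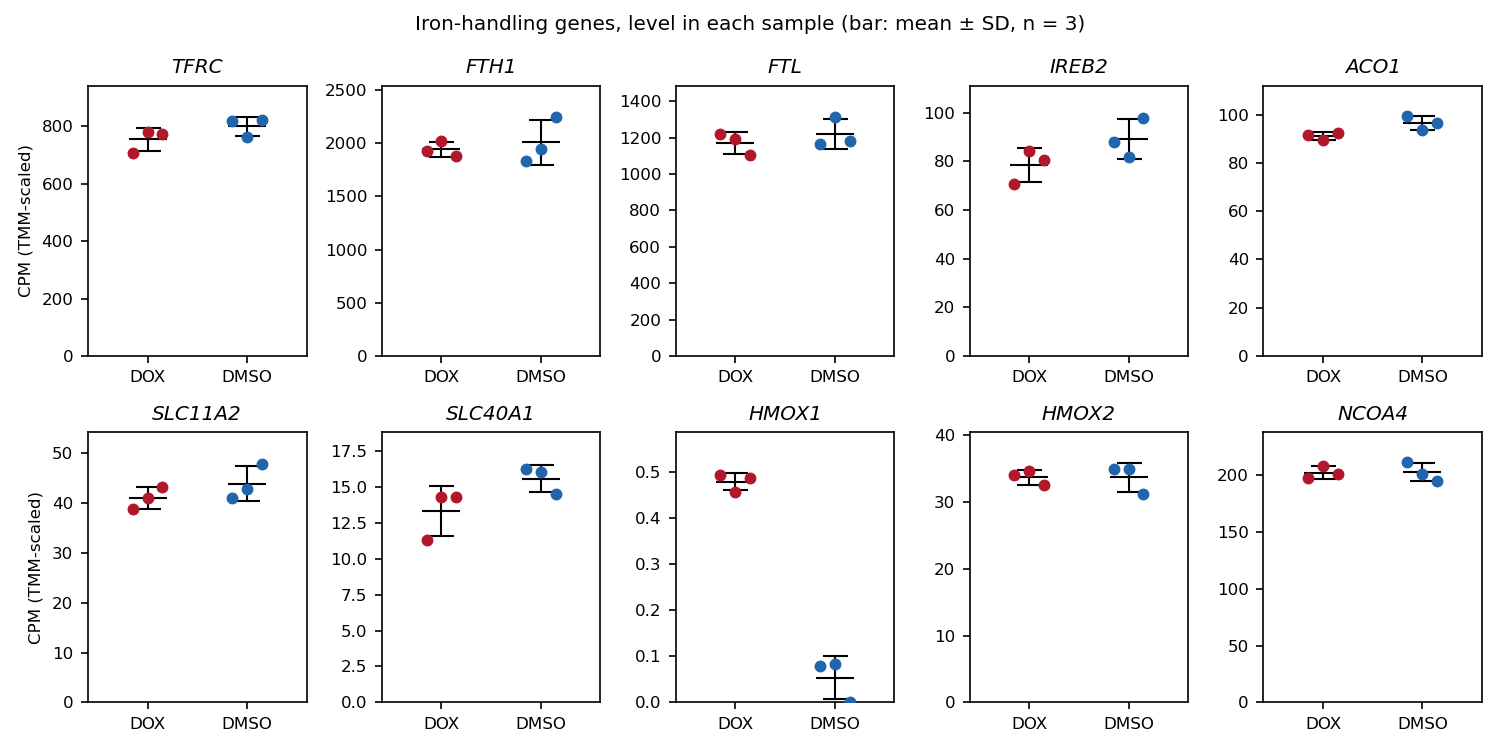
Level of each of the 10 iron-handling genes in CPM with TMM scaling, on axes that start at 0, with DOX samples in red on the left and DMSO samples in blue on the right; points are samples and bars show mean ± SD (n = 3 each). Points of both groups intermix for 7 genes, while HMOX1 stood between 0.457 and 0.493 CPM in DOX and at or below 0.0826 CPM in DMSO.

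TFRC, the transferrin receptor, had 709, 781 and 774 CPM in DOX replicates 1, 2 and 3, against 818, 763 and 822 CPM in DMSO replicates 1, 2 and 3. DOX replicate 1 was the lowest of the 6 samples, and DMSO replicate 2 lay below DOX replicates 2 and 3, so the groups overlapped. Means were 755 ± 39.7 CPM in DOX and 801 ± 32.8 CPM in DMSO (SD, n = 3 each). The log2 fold change was -0.09 (standard error, SE, 0.0528, edgeR adjusted p = 0.233). Its 95% interval ran from a 0.874-fold to a 1.02-fold level, and its lower bound is a change of -12.6%. The value was 0.01 with GC content and length corrected. The authors' deposited table gives TFRC -0.10 on the log2 scale (DESeq2 adjusted p = 0.154). TFRC overlaps the processed pseudogene AC024937.1 on the opposite strand in GENCODE 29, which had 2 to 7 counts in DOX and 1 to 2 counts in DMSO.

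SLC11A2, the transporter that moves ferrous iron out of the endosome, had 38.8, 41.1 and 43.3 CPM in DOX replicates 1, 2 and 3, against 41.0, 42.8 and 47.9 CPM in DMSO replicates 1, 2 and 3. The groups overlapped, and the log2 fold change of -0.10 was not called (95% interval -0.23 to 0.04, edgeR adjusted p = 0.272). It was listed at -0.00 with GC content and length corrected.

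SLC40A1, ferroportin, the exporter of iron, had 11.3, 14.3 and 14.3 CPM in DOX replicates 1, 2 and 3, against 16.2, 16.0 and 14.5 CPM in DMSO replicates 1, 2 and 3. All DOX samples lay below all DMSO samples, though DOX replicates 2 and 3 came close to DMSO replicate 3. The mean was 13.3 ± 1.70 CPM in DOX and 15.6 ± 0.911 CPM in DMSO (SD, n = 3 each). Its log2 fold change of -0.23 (SE 0.0889) missed the threshold (edgeR adjusted p = 0.0536). Without DOX replicate 1 the value was -0.13 (edgeR adjusted p = 0.323), and with GC content and length corrected it was -0.11 (edgeR adjusted p = 0.373). It passed without DOX replicate 2 (edgeR adjusted p = 0.0372), without DOX replicate 3 (edgeR adjusted p = 0.0434), without DMSO replicate 3 (edgeR adjusted p = 0.0285) and with no filter on low counts (edgeR adjusted p = 0.0310).

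The ferritin chains had the highest CPM of the 10 genes. FTH1, the heavy chain that oxidises iron for storage, had 1926, 2019 and 1884 CPM in DOX replicates 1, 2 and 3, against 1835, 1951 and 2245 CPM in DMSO replicates 1, 2 and 3. The lowest and the highest samples were both in DMSO, whose spread enclosed all DOX samples. The log2 fold change was -0.05 (95% interval -0.18 to 0.08, edgeR adjusted p = 0.592), and it was 0.04 without DMSO replicate 3 and 0.07 with GC content and length corrected. FTL, the light chain, which helps form the iron core, had 1221, 1193 and 1105 CPM in DOX replicates 1, 2 and 3, against 1166, 1315 and 1180.5 CPM in DMSO replicates 1, 2 and 3. The groups overlapped here too, and the log2 fold change was -0.06 (95% interval -0.17 to 0.06, edgeR adjusted p = 0.476).

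Ferritin genes have many processed copies, and how reads that fit several places were counted is not stated in the sources used here, which makes ferritin counts uncertain. The table lists 29 identifiers named FTH1P, 16 of them with any counts, which summed to 263 to 303 counts in DOX libraries and 236 to 280 counts in DMSO libraries. It lists 16 named FTLP, 4 of them with counts, which summed to 128 to 154 counts in DOX libraries and 126 to 159 counts in DMSO libraries. These sums came to between 0.433% and 0.605% of the parent gene's count. The highest were FTH1P2, FTLP3 and FTH1P8, at log2 fold changes of 0.13, -0.12 and -0.02, and none was called (edgeR adjusted p = 0.454, 0.475 and 0.965). Adding the copies to their parents left FTH1 at -0.05 and FTL at -0.06.

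Ratios within a library do not depend on how libraries are scaled. The TFRC count was 0.368, 0.387 and 0.411 times the FTH1 count in DOX replicates 1, 2 and 3, against 0.446, 0.391 and 0.366 times in DMSO replicates 1, 2 and 3. The DMSO samples spread on both sides of the DOX samples, and the log2 difference of -0.04 was small beside that spread (two-sided exact permutation p = 0.7, where 3 samples against 3 cannot go below 0.1). The FTH1 count was 1.578, 1.693 and 1.705 times the FTL count in DOX replicates 1, 2 and 3, against 1.573, 1.484 and 1.902 times in DMSO replicates 1, 2 and 3. Here as well DMSO held the lowest and the highest sample, and the log2 difference was 0.01 (two-sided exact permutation p = 0.9).

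**Figure D2:**
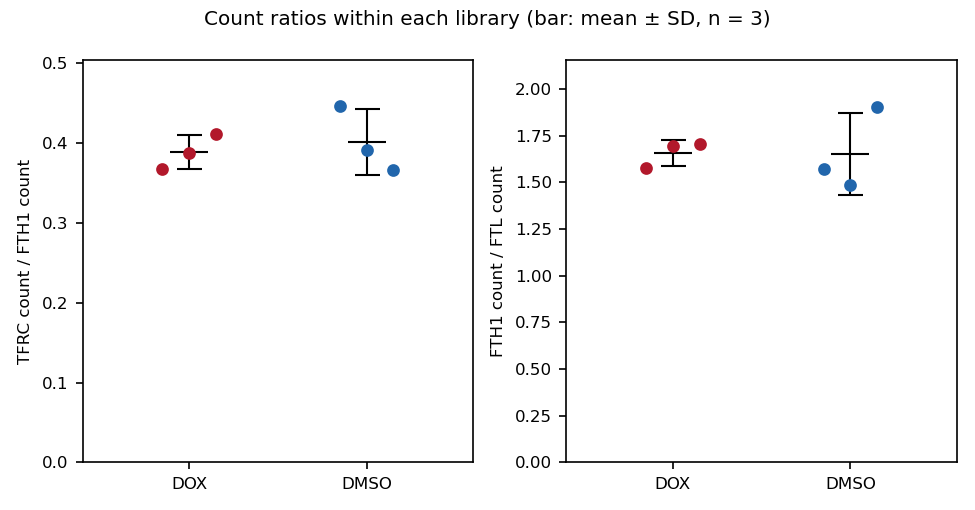
Count of TFRC over that of FTH1 (left) and of FTH1 over that of FTL (right) in each library, on axes that start at 0, with DOX in red on the left of each panel and DMSO in blue on the right; bars show mean ± SD (n = 3 each). In both panels the DOX samples lie within or close to the range of the DMSO samples, which were 0.366 to 0.446 for TFRC over FTH1 and 1.484 to 1.902 for FTH1 over FTL.

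NCOA4, the receptor that takes ferritin to the lysosome, had 197, 208 and 201 CPM in DOX replicates 1, 2 and 3, against 211, 201 and 195 CPM in DMSO replicates 1, 2 and 3. The groups overlapped, with means of 202 ± 5.77 CPM in DOX and 202 ± 8.04 CPM in DMSO (SD, n = 3 each). The 95% interval of its change ran from -6.87% to 7.14% (edgeR adjusted p = 0.985). Its identifier has no match in GENCODE 29, so it has no value with GC content and length corrected.

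The iron regulatory proteins differed in how their libraries lay. IREB2, iron regulatory protein 2, which is itself degraded when iron is plentiful, had 70.8, 84.4 and 80.4 CPM in DOX replicates 1, 2 and 3, against 88.2, 81.8 and 97.8 CPM in DMSO replicates 1, 2 and 3. It was lower on average in DOX, but DOX replicate 2 lay above DMSO replicate 2. Means were 78.5 ± 7.0 CPM in DOX and 89.3 ± 8.01 CPM in DMSO (SD, n = 3 each), and the log2 fold change was -0.18 (SE 0.0647, edgeR adjusted p = 0.0332). The authors' deposited table gives IREB2 -0.19 (DESeq2 adjusted p = 0.0426), the sole one of the 10 genes called there, beside 9.79% of genes called as higher and 15.6% as lower in that table. This call depended on which libraries and which scaling were used. It held under 7 of 15 alternatives, among them the replicate block (-0.18, edgeR adjusted p = 0.0305) and no filter on low counts (-0.20, edgeR adjusted p = 0.00544). It was lost without DOX replicate 1 (-0.11, edgeR adjusted p = 0.233), without DOX replicate 3 (-0.20, edgeR adjusted p = 0.0553), without DMSO replicate 1 (-0.19, edgeR adjusted p = 0.0737) and without DMSO replicate 3 (-0.12, edgeR adjusted p = 0.185). It was also lost with upper-quartile scaling (-0.14, edgeR adjusted p = 0.111), with library size alone (-0.14, edgeR adjusted p = 0.131) and with GC content and length corrected (-0.09, edgeR adjusted p = 0.207). The longest transcript of IREB2 is 38.3% G and C, the lowest of the 9 genes matched, while that of HMOX1 is 58.1%, the highest. It overlaps the antisense gene AC027228.1 in GENCODE 29, which had at most 2 counts in any library.

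ACO1, iron regulatory protein 1, which serves as the cytosolic aconitase when it holds an iron-sulfur cluster, had 91.4, 89.5 and 92.5 CPM in DOX replicates 1, 2 and 3, against 99.4, 93.8 and 96.5 CPM in DMSO replicates 1, 2 and 3. Every DOX sample was below every DMSO sample, with the tightest replicates of the 10 genes. The change was small, a log2 fold change of -0.08 (95% interval -0.19 to 0.02), and was not called (edgeR adjusted p = 0.219). It was -0.10 with GC content and length corrected (edgeR adjusted p = 0.0727).

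HMOX1, the inducible heme oxygenase, which opens the heme ring and frees its iron, had 13, 12 and 13 reads in DOX replicates 1, 2 and 3, against 2, 2 and 0 reads in DMSO replicates 1, 2 and 3. These counts correspond to 0.493, 0.457 and 0.486 CPM in DOX and 0.0793, 0.0826 and 0 CPM in DMSO, where the count of 0 allows up to 0.131 CPM. The groups did not overlap, and the gene stayed near the floor of detection in both. Summed over libraries the 38 reads in DOX against 4 reads in DMSO gave a scaled ratio of 8.66, with an exact 95% interval of 3.12 to 33.4 that covers counting error only. The fitted log2 fold change was 3.01 (SE 0.579, edgeR adjusted p = 3.78e-04). HMOX1 was tested because its DOX libraries reached the filter's minimum of 0.390 CPM, which its DMSO libraries did not. Genes that enter this way lean towards higher levels in DOX, so its test was not independent of its entry. The authors' deposited table gives a log2 fold change of 3.11 with no adjusted p-value.

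Low-level genes as a whole leaned the same way. Of 2225 tested genes with a mean under 1 CPM, 8.58% were called as higher and 0.809% as lower in DOX, with a median log2 fold change of 0.19. The 9 macrophage markers summed to 0.839 to 1.08 CPM in DOX and 0.742 to 1.15 CPM in DMSO, ranges that overlap. Whether these low levels bear on HMOX1 was not tested. Single markers went both ways: CSF1R had 0.0759, 0.0381 and 0.0748 CPM in DOX replicates 1, 2 and 3, against 0.159, 0.0826 and 0.0873 CPM in DMSO replicates 1, 2 and 3, without overlap. Each CSF1R value stands for only a few reads, and before scaling some DOX and DMSO libraries had equal counts. This separation therefore cannot show a difference in macrophage content. CD14 had 0.569, 0.267 and 0.262 CPM in DOX replicates 1, 2 and 3, against 0.238, 0.454 and 0.0873 CPM in DMSO replicates 1, 2 and 3, with overlap, and CD163 and CD68 overlapped too.

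HMOX2, the constitutive heme oxygenase, had 34.0, 34.7 and 32.5 CPM in DOX replicates 1, 2 and 3, against 34.9, 35.0 and 31.2 CPM in DMSO replicates 1, 2 and 3. The groups overlapped and the mean was 33.7 CPM in each, with a 95% interval of the change from -8.62% to 9.57% (edgeR adjusted p = 0.993). HMOX2 overlaps NMRAL1 on the opposite strand in GENCODE 29, as FTH1 overlaps BEST1, and the sources used here do not say whether the counting used strand, so reads of such pairs cannot be told apart. NMRAL1 had 1636 to 1761 counts in DOX and 1417 to 1809 counts in DMSO, and BEST1 had 15 to 22 counts in DOX and 9 to 17 counts in DMSO. Neither was called (edgeR adjusted p = 0.215 and 0.352).

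**Figure D3:**
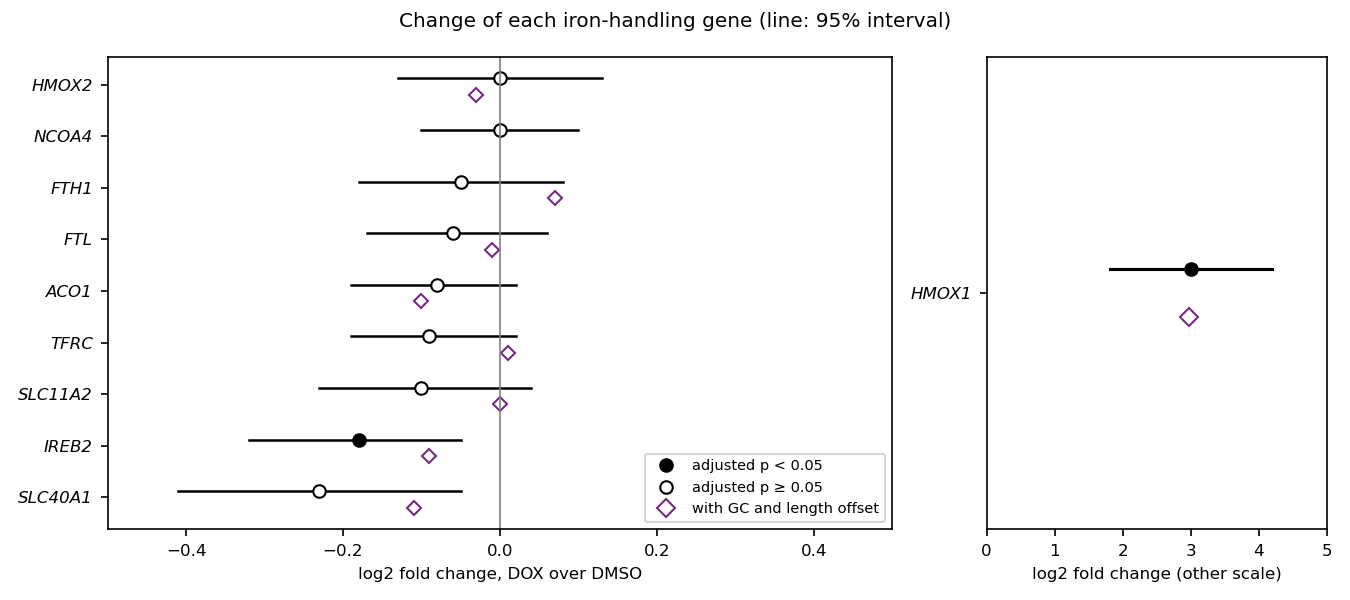
Log2 fold change of each gene, DOX over DMSO, as circles with 95% intervals (filled where the edgeR adjusted p is under 0.05), and as diamonds with GC content and length corrected (NCOA4 has none); HMOX1 is on a wider axis at the right. The other 9 genes lie between -0.23 and 0.00, and IREB2 alone of these is filled among circles. HMOX1 lies at 3.01, with a corrected value of 2.98 (edgeR adjusted p = 9.24e-04). It entered both fits through its DOX libraries alone, so the corrected value adds no support to its call.

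Levels between genes were compared per kilobase of the longest GENCODE 29 transcript, for the 9 genes matched by identifier. FTH1 stood at 1581 ± 56.3 CPM per kilobase in DOX and 1636 ± 172 in DMSO, and FTL at 1336 ± 68.7 in DOX and 1390.2 ± 93.5 in DMSO. TFRC followed at 148 ± 7.78 in DOX and 157 ± 6.42 in DMSO. Far below these came HMOX2 (15.7 in DOX and 15.7 in DMSO), IREB2 (12.4 in DOX and 14.0 in DMSO) and ACO1 (12.2 in DOX and 12.9 in DMSO). SLC11A2 (9.44 in DOX and 10.1 in DMSO) and SLC40A1 (3.87 in DOX and 4.53 in DMSO) were lower, and HMOX1 was last at 0.263 in DOX and 0.0296 in DMSO. With the length of all exons of the gene joined, FTL came above FTH1, and ACO1 (12.1 in DOX and 12.8 in DMSO) came above HMOX2 (8.90 in DOX and 8.88 in DMSO) and IREB2 (7.27 in DOX and 8.26 in DMSO), so the order of these neighbours depends on the length used.

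By the likeness of log2 CPM across the 6 samples, which share 2 groups, the genes most like TFRC among 9659 searched were RP11-284N8.3, KIF3A and HLTF, with Pearson correlations of 0.995, 0.993 and 0.991. Those most like FTH1 were MED28, SLC41A1 and ARCN1, at 0.980, 0.977 and 0.977. None of these 6 genes was called between the groups (edgeR adjusted p of 0.117 to 0.802). Being the highest of 9659 correlations over only 6 samples, these values do not show that the genes are controlled together, which was not tested.

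The E-box CACGTG, a sequence that MYC with MAX can bind, was searched on both strands (it reads the same on each) in promoter windows from 250 bases before to 50 bases after a gene start (RefSeq, GRCh38.p14). It was found in 7.26% of all 35116 windows. Windows were matched for 8 of the genes (14 windows in all), while FTH1 and HMOX1 had none and were not searched. Of these windows 1, of HMOX2 on chromosome 16 at 28 bases before the start, held it.
HMOX2 E-box in capitals, plus strand: ccccaggCACGTGcacagtg
A match is a description of letters, not of binding.

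Partners of these genes were taken from 8 lists of pathway genes that name 110 different genes, of which 88 were tested, 7 rose and 26 fell, or 37.5% called in all beside 29.3% of all genes. Most list genes were well expressed, with 74 of the 88 at a mean of 10 CPM or more, and of all genes at that level 38.2% were called, 14.0% as higher and 24.2% as lower. With GC content and length corrected, 4 rose and 14 fell, or 20.5% called beside 21.9% of all genes. Of the 74 list genes at a mean of 10 CPM or more, 8.11% were called as higher and 31.1% as lower. With GC content and length corrected, the calls over all genes were 1657 higher and 1635 lower. Whether the lists differ from other genes was not tested. The counts of each list below are to be read beside these shares. The lists share some members, among them FAM96A, CIAO1, CIAPIN1, FAM96B and MMS19, which stand in both the regulatory protein and the iron-sulfur list.

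**Figure D4:**
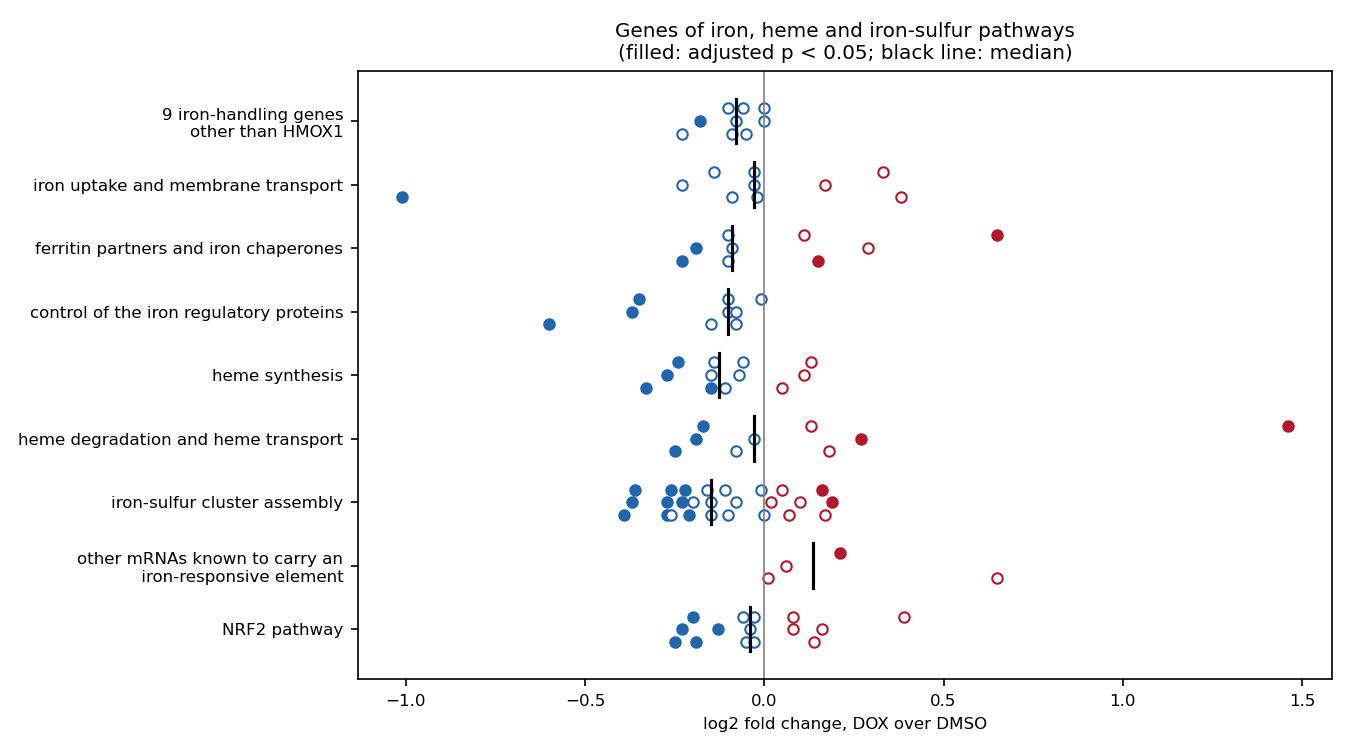
Log2 fold change, DOX over DMSO, of every tested gene of the 8 lists, with the 9 iron-handling genes other than HMOX1 in the top row; filled points have an edgeR adjusted p under 0.05, red is higher and blue lower in DOX, and black lines are medians. Medians run from -0.15 for iron-sulfur cluster assembly to 0.13 for other mRNAs known to carry an iron-responsive element.

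Of 10 tested genes of iron uptake and membrane transport, 1 fell and 0 rose (median log2 fold change -0.03), and 2 fell without DOX replicate 1. The gene was STEAP1, a member of the STEAP family of metalloreductases, at 0.807 ± 0.0387 CPM in DOX and 1.63 ± 0.207 CPM in DMSO (SD, n = 3 each), which fell by 1.01 on the log2 scale (edgeR adjusted p = 0.00199) at a low level. SLC39A14, a zinc and iron importer, stood at -0.14 (edgeR adjusted p = 0.0508), and MCOLN1, a lysosomal cation channel that passes iron, at 0.17 (edgeR adjusted p = 0.0592). STEAP3, the main endosomal ferrireductase of erythroid cells, had at most 3 reads in any library, and so did the hormone gene HAMP.

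Of 9 tested ferritin partners and iron chaperones, 2 rose and 2 fell (median -0.09). PCBP3, of the family of poly(C)-binding proteins, had 25.2 ± 0.503 CPM in DOX and 16.1 ± 0.943 CPM in DMSO (SD, n = 3 each), a rise of 0.65 (SE 0.0705, edgeR adjusted p = 4.15e-07). PCBP2, which also carries iron, had 212, 210.0 and 212 CPM in DOX replicates 1, 2 and 3, against 232, 239.5 and 270.0 CPM in DMSO replicates 1, 2 and 3, and fell by 0.23 (edgeR adjusted p = 0.00234). PCBP1, the chaperone that loads ferritin, stood at -0.09 and was not called (edgeR adjusted p = 0.213). GLRX3, a glutaredoxin of cytosolic iron supply, fell by 0.19, and HERC2, the ubiquitin ligase that degrades NCOA4, rose by 0.15 (edgeR adjusted p = 0.0113 and 0.0436). With GC content and length corrected, PCBP3 and PCBP2 were the 2 that passed, in the same directions, and HERC2 was at -0.07. HERC2 also missed the threshold without DOX replicate 1 or 3 (edgeR adjusted p = 0.0845 and 0.211) and without DMSO replicate 2 or 3 (edgeR adjusted p = 0.129 and 0.122), and GLRX3 without DOX replicate 1 or DMSO replicate 1 (edgeR adjusted p = 0.0621 and 0.0706).

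Of 9 genes that control the iron regulatory proteins, 3 fell and 0 rose (median -0.10). For comparison, 24.2% of all genes at a mean of 10 CPM or more were called as lower and 14.0% as higher. RBX1 and SKP1 are subunits of the cullin ligase that, with FBXL5 as its iron sensor, degrades IREB2. RBX1 had 18.5 ± 1.42 CPM in DOX and 28.1 ± 0.481 CPM in DMSO (SD, n = 3 each) and fell by 0.60 (SE 0.0698, edgeR adjusted p = 9.39e-07). SKP1 had 101 ± 2.97 CPM in DOX and 129 ± 4.33 CPM in DMSO (SD, n = 3 each) and fell by 0.35 (edgeR adjusted p = 1.64e-05). FBXL5 itself had 54.8, 55.7 and 55.7 CPM in DOX replicates 1, 2 and 3, against 56.2, 61.2 and 58.0 CPM in DMSO replicates 1, 2 and 3. Although its groups did not overlap, its log2 fold change of -0.08 was not called (edgeR adjusted p = 0.304), and it was 0.07 with GC content and length corrected. FAM96A, of the machinery that inserts iron-sulfur clusters and acts on ACO1, fell by 0.37 (edgeR adjusted p = 6.28e-05), and was at -0.14 with GC content and length corrected (edgeR adjusted p = 0.0680), where RBX1 and SKP1 still passed at -0.42 and -0.34.

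Of 12 tested genes of heme synthesis, 4 fell and 0 rose (median -0.12), and 2 fell without DMSO replicate 1 but 6 without DMSO replicate 3. Among all genes at a mean of 10 CPM or more, 24.2% were called as lower and 14.0% as higher. TMEM14C, a mitochondrial transporter of porphyrin precursors, had 25.9 ± 1.89 CPM in DOX and 32.5 ± 2.36 CPM in DMSO (SD, n = 3 each) and fell by 0.33 (edgeR adjusted p = 9.00e-04). The enzyme CPOX fell by 0.27 (edgeR adjusted p = 0.00423) and the mitochondrial carrier ABCB10 by 0.15 (edgeR adjusted p = 0.0319), and ABCB10 did not pass with GC content and length corrected (-0.07, edgeR adjusted p = 0.228). ALAS1, which makes the initial precursor, stood at 0.05 and FECH, which inserts the iron, at -0.07, and neither was called (edgeR adjusted p = 0.526 and 0.421).

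Of 9 tested genes of heme degradation and transport, 2 rose and 3 fell (median -0.03). SLC48A1, which moves heme out of endosomes and lysosomes, had 58.7 ± 1.43 CPM in DOX and 48.7 ± 3.39 CPM in DMSO (SD, n = 3 each) and rose by 0.27 (edgeR adjusted p = 0.00118). HPX, the plasma heme binder, rose by 1.46 (edgeR adjusted p = 0.0108) at 0.581 ± 0.127 CPM in DOX and 0.207 ± 0.108 CPM in DMSO (SD, n = 3 each), and like HMOX1 it entered the test through its DOX libraries alone. HPX missed the threshold without DOX replicate 2 (1.27, edgeR adjusted p = 0.0574) and without DMSO replicate 2 (1.09, edgeR adjusted p = 0.0778). BLVRA, the biliverdin reductase that acts after heme oxygenase, fell by 0.25, and the heme-binding proteins PGRMC2 and PGRMC1 by 0.19 and 0.17. These 3 falls did not pass with GC content and length corrected, at -0.13, -0.13 and -0.00, nor when scaled by the upper quartile or by library size, nor without DOX replicate 1 or without DMSO replicate 1, and 1 of them passed without DOX replicate 2 or without DMSO replicate 3.

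Of 26 tested genes of iron-sulfur cluster assembly, 9 fell, FAM96A among them, and 2 rose (median -0.15). Over all genes at a mean of 10 CPM or more, 24.2% were called as lower and 14.0% as higher. In this list a single gene rose without DOX replicate 1 or 3 or without DMSO replicate 1 or 3. HSPA9, the mitochondrial chaperone that helps pass clusters on, had 244 ± 4.41 CPM in DOX and 295 ± 7.45 CPM in DMSO (SD, n = 3 each) and fell by 0.27 (SE 0.0477, edgeR adjusted p = 1.38e-04). BOLA3, a late-acting mitochondrial factor, had 21.5 ± 1.59 CPM in DOX and 28.1 ± 1.36 CPM in DMSO (SD, n = 3 each) and fell by 0.39 (edgeR adjusted p = 1.83e-04). NUBP1, a cytosolic scaffold, fell by 0.36, the late-acting factors NFU1 and ISCA1 by 0.27 and 0.26, and the glutaredoxin GLRX5 by 0.21, while the cytosolic reductase NDOR1 rose by 0.19 (edgeR adjusted p of 0.00376 to 0.00896). With GC content and length corrected, 5 fell and 0 rose. Among those 5 were HSPA9, BOLA3, NUBP1 and LYRM4 (LYRM4 was named after its value was seen), while NFU1, ISCA1, GLRX5 and NDOR1 did not pass, at -0.05, -0.05, -0.06 and 0.05. ISCU, the scaffold of the mitochondrial pathway, stood at 0.05 and NFS1, its sulfur donor, at -0.11, and neither was called (edgeR adjusted p = 0.511 and 0.243).

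Of 4 tested genes among other mRNAs known to carry an iron-responsive element, 1 rose and 0 fell (median 0.13), and 2 rose without DMSO replicate 3. CDC42BPA, a kinase, had 76.5 ± 0.934 CPM in DOX and 66.3 ± 3.47 CPM in DMSO (SD, n = 3 each) and rose by 0.21 (edgeR adjusted p = 0.00519). CDC14A, a phosphatase, stood at 0.01 and EPAS1, a hypoxia-inducible transcription factor, at 0.65, and neither was called (edgeR adjusted p = 0.933 and 0.130). ALAS2, the erythroid enzyme, had at most 5 reads in any library and was not tested.

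Of 15 tested genes of the NRF2 pathway, which induces HMOX1 and ferritin under oxidative stress, 5 fell and 0 rose (median -0.04), and 2 fell without DOX replicate 3. The shares of all genes at a mean of 10 CPM or more were 24.2% called as lower and 14.0% as higher. NFE2L2, which encodes NRF2, had 55.1 ± 1.70 CPM in DOX and 65.4 ± 4.16 CPM in DMSO (SD, n = 3 each) and fell by 0.25 (SE 0.0573, edgeR adjusted p = 0.00195). The glutathione synthesis enzymes GCLC and GCLM fell by 0.23 and 0.20, PRDX1 by 0.19 and TXNRD1 by 0.13 (edgeR adjusted p of 0.00375 to 0.0442). BACH1, the heme-sensitive repressor of HMOX1, stood at -0.03, and the NRF2 targets NQO1 and SLC7A11 at 0.16 and 0.14, all not called (edgeR adjusted p = 0.792, 0.380 and 0.368). With GC content and length corrected 2 fell, NFE2L2 at -0.15 and KEAP1, the inhibitor of NRF2, at -0.17 (edgeR adjusted p = 0.0311 and 0.00894), KEAP1 being named after its value was seen. GCLC, GCLM, PRDX1 and TXNRD1 then stood between -0.14 and -0.06 and did not pass.

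**Figure D5:**
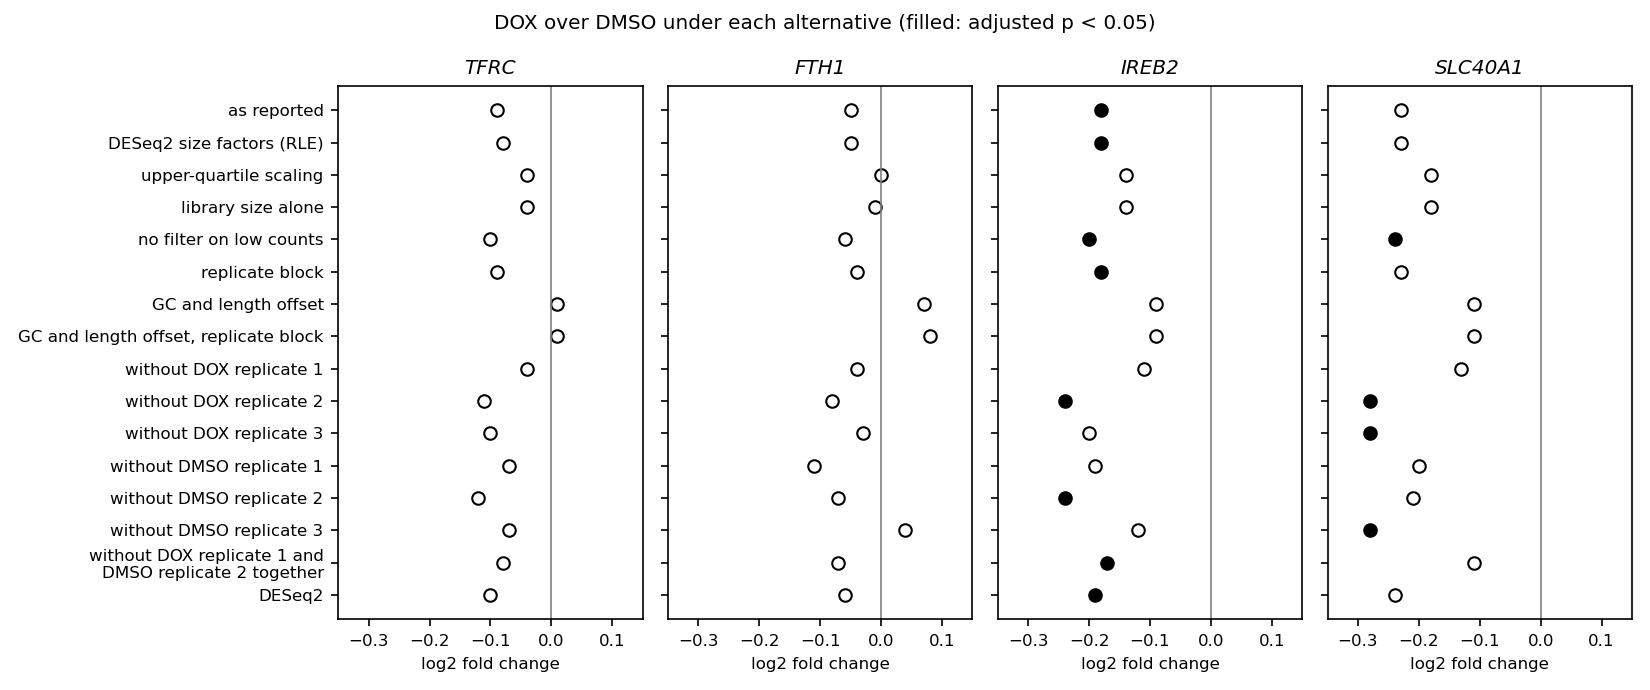
Log2 fold change, DOX over DMSO, of TFRC, FTH1, IREB2 and SLC40A1 as reported (top row) and under 15 alternatives, filled where the adjusted p is under 0.05. TFRC and FTH1 are open in every row, IREB2 is filled in 7 of 15 alternatives and SLC40A1 in 4 of 15, FTH1 lies above 0 without DMSO replicate 3, and both TFRC and FTH1 do with GC content and length corrected.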

How the data were processed

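The authors deposited raw read counts per gene and a table of their DESeq2 comparison. STAR 2.5.2a, featureCounts, DESeq2 1.12.4 and hg19 are named, without roles, per the submitters' processing notes. No annotation, strand setting or rule for multiply mapped reads is given in the sources used here. Columns of the authors' deposited table are the normalized signal averaged over samples, the log2 fold change and its error, the test score, and raw and adjusted p-values. Total RNA gave strand-specific paired-end libraries, per the labels' protocols.

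Here, filterByExpr at its defaults (minimum count 10) kept 15492 of 63677 genes. Libraries were scaled with TMM, and DOX was compared with DMSO in edgeR 4.0.16 under R 4.3.3 (quasi-likelihood test, no term beside treatment), with Benjamini-Hochberg adjustment over all 15492 genes. SE is the size of the log2 fold change over the square root of F. The correction for GC content and length fitted natural splines (5 degrees of freedom each) of both, from the longest GENCODE 29 transcript, per library and entered as an offset for 15036 genes (97.1% of those tested). It also removes true change that follows either property. The scripts were tested on simulated data. Intervals from counts cover counting error only.

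The alternatives were other scalings, no filter, DESeq2 1.42.0, a replicate block, the correction, ferritin copies added, and samples left out. Samples were left out singly, and DOX replicate 1 and DMSO replicate 2 also together. The DESeq2 run on the counts returned the values of the authors' deposited table (no log2 fold change differed by more than 0.001, and all 3498 calls were shared), so both are 1 result. The genes and lists were chosen with earlier results of these data known. The text names the 10 genes, MYC, the 3 genes with the smallest p and up to 8 called genes of each list, the 3 ferritin copies with the highest counts and the 3 genes most like TFRC and FTH1 (mean log2 CPM of at least 3); other list members were named for their role after their values were seen. A few list and marker genes are not reported here by name.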

Additional observations from a re-analysis of the deposited data

How the results depend on the processing

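Over the whole table, 4545 genes were called, and between 3139 and 4532 under the alternatives (3498 by DESeq2, 3292 with GC content and length corrected), all within 1.5 times. HMOX1 was called as higher under all 14 alternatives that gave it an adjusted p (log2 fold change 2.49 to 3.38, adjusted p of 6.75e-05 to 0.00547); DESeq2 gave none. Since HMOX1 entered through its DOX libraries alone under the filter that most of these share, this count does not show that the call is stable. The count of iron-handling genes called lower, 1 as reported, was 0 under upper-quartile scaling, library size alone, and GC content and length corrected with or without the replicate block, 2 with no filter on low counts (IREB2 and SLC40A1), and 0 to 2 with single samples left out. Where 1 remained without DOX replicate 3 or without DMSO replicate 3, it was SLC40A1 in place of IREB2. With the replicate block it was 1 (4206 genes called in all). Same-numbered samples did not deviate together (correlations of -0.058, -0.227 and 0.086 for numbers 1, 2 and 3 over 10864 genes), so the numbers were not taken as pairs. The highest correlations were between different numbers, 0.323 for DOX 1 with DMSO 2 and 0.242 for DOX 2 with DMSO 3. Neither entered a fit as a pair, but an alternative left out DOX replicate 1 and DMSO replicate 2 together. The TFRC to FTH1 log2 difference of -0.04 ranged from -0.11 to 0.04 with single samples left out and was 0.04 without DMSO replicate 1, and that of FTH1 to FTL, 0.01 as reported, ranged from -0.06 to 0.12. Without DOX replicate 2, DOX replicate 3, DMSO replicate 1 or DMSO replicate 2 it was -0.00, -0.01, -0.02 and -0.06. With the replicate block and the ferritin copies added, both ratios kept their direction. The cause of these differences was not tested. Depth limits HMOX1, with 4 reads over all DMSO libraries, far more than the other 9 genes, each with at least 299 reads in every library.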
